A study of Mus musculus with 2 samples.

Results

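DNA methylation was compared between PDGFRα+ (CD140+) and CD137+ adipose progenitors of C57BL/6 mice, with 1 whole-genome bisulfite library of each. The account here concerns the cytosine-dense regions, the differentially methylated regions of chromosomes 1 to 19 that held 10 or more counted cytosines per 100 bases. There were 1914 of them among 27774 regions on those chromosomes (6.89%) and 28141 in the whole deposited table, and the rule used only the number of cytosines and the length of a region. The PDGFRα+ library came from progenitors carrying a platelet-derived growth factor receptor typical of mesenchymal cells. The CD137+ library came from progenitors carrying a tumour necrosis factor receptor family member, encoded by Tnfrsf9, that is used to mark beige precursors. Both populations were sorted on magnetic beads from subcutaneous or visceral fat, grown in culture, taken through an adipogenic cocktail and given 1 µM dexamethasone, a synthetic glucocorticoid. The depot of each library, the number of animals and their age were not given in the sources used here. No library without dexamethasone was analysed here. Neither Pdgfra nor Tnfrsf9 held a dense region, and expression of the sorting markers was not measured. Each group had 1 library, so the differences could not be set against replicates, p-values were left out, and levels carry no interval because read depth is unknown.

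In mammalian DNA, methyl groups sit mainly on cytosines followed by guanine (CpG). Such sites are scarce over most of the genome and methylated at most positions, while the CpG-rich stretches called CpG islands, many of them at gene starts, are usually free of methylation. Imprinted genes are an exception, since their control regions are methylated on only the maternal or only the paternal copy.

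The sequence of a dense region shows what the count of cytosines refers to. Where a region boundary fell inside a RefSeq promoter window (GRCm38.p6, the assembly of mm10), its first base was at the C or the G of a CpG in 242 of 242 cases, and its last base in 233 of 233. In the 85 regions that lay wholly inside a window, 13 of them dense, the deposited number of cytosines never exceeded the CpG cytosines of both strands. In these regions the deposited number was therefore taken to count CpG cytosines on both strands, although not all of them in every region. The cytosines of regions outside the windows were not checked. The median share counted was 100% in the 13 dense regions and 90.5% in the 72 remaining ones. The rule uses counted cytosines, so a fuller count in dense regions follows in part from it. By all CpG cytosines of their sequence, 15 of the 72 remaining regions also reached 10 per 100 bases. The sequences of 5 dense regions are printed below on the strand of their gene, 5′ to 3′, with the bases of each CpG in capitals (a lone capital at an edge belongs to a CpG that the boundary splits), followed by a region under the density limit for contrast. They were taken because the whole region lay in the window of a protein-coding gene and ran no more than a short way past the start.
Mest (chr6:30737888-30738074, + strand): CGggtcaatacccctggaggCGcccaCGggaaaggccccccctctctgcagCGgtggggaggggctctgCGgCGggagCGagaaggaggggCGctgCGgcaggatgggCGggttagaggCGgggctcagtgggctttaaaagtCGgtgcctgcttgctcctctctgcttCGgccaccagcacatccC
Tnfsf8 (chr4:63861270-63861415, - strand): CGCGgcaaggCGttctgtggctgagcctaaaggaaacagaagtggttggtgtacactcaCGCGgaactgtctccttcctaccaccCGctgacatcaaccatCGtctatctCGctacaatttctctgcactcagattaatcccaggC
Fam110a (chr2:151974131-151974187, - strand): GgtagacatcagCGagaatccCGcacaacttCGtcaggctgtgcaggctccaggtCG
Clca3a2 (chr3:144819473-144819546, - strand): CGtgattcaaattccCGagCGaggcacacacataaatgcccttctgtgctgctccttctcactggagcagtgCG
Cntn4 (chr6:106118865-106118915, + strand): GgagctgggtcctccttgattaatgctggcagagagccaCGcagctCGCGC
Trak1 (chr9:121366709-121366975, + strand, not dense): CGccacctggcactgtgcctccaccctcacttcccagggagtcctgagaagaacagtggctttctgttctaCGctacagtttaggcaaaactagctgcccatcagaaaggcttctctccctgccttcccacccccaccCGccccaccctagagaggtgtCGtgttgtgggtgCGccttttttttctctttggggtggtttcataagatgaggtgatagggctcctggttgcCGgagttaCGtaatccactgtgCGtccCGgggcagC
The Mest region reached from position -165 to position 21 relative to the gene start, and 20 of its 27 CpG cytosines were counted in 187 bases. Its level was 0.839 in PDGFRα+ and 0.480 in CD137+ cells. Mest is a paternally expressed imprinted gene, and this region sat at its promoter. The region of Tnfsf8, the gene of the CD30 ligand, had 17 cytosines in 146 bases and levels of 0.789 in PDGFRα+ and 0.374 in CD137+ cells. The region before Fam110a had 9 cytosines in 57 bases and levels of 0.649 in PDGFRα+ and 0.267 in CD137+ cells. These 3 regions were thus more methylated in the PDGFRα+ library. The opposite held at Clca3a2, a member of the chloride channel accessory family, with 0.407 in PDGFRα+ and 0.890 in CD137+ cells. It also held at Cntn4, which encodes a neural cell adhesion protein, with 0.0786 in PDGFRα+ and 0.394 in CD137+ cells. The contrast region of Trak1 spread 12 counted cytosines over 267 bases (4.49 per 100 bases) and had 0.284 in PDGFRα+ and 0.933 in CD137+ cells.

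Dense regions were short, and the rule favours this because it divides the number of cytosines by the length. Their median length was 72 bases (quartiles 60 and 97), against 228 bases (133 and 351) in the remaining 25860 regions, while the median number of cytosines was 9 in both classes. In all, 1470 dense regions (76.8%) were no longer than 100 bases, against 4027 (15.6%) of the remaining ones. They made up 2.46% of the listed bases and 7.44% of the listed cytosines. Median density was 11.7 cytosines per 100 bases in dense regions and 4.42 in the others, and the highest was 56.5. The higher density and the larger share of cytosines than of bases follow from the rule and are description. Since the shortest listed region had 51 bases, a dense region needed at least 6 cytosines, while the fewest in any listed region was 4.

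Dense regions were more often hypermethylated in PDGFRα+ cells than the other listed regions, although most were still hypomethylated there. Of the 1914, 572 were higher in PDGFRα+ cells (29.9%, 95% Wilson interval 27.9 to 32.0) and 1342 were lower (70.1%). Of all regions on these chromosomes, 22.3% were higher and 77.7% lower, and of the remaining regions 5621 were higher (21.7%, 21.2 to 22.2). Such an interval reflects counting error alone and takes each region as independent, which neighbours are not. The share higher was larger in dense than in remaining regions on each of the 19 chromosomes, from 22.2% to 37.3% in dense regions and from 18.5% to 26.2% in the others.

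The 2 libraries lay closer together in dense regions. Dense regions lower in PDGFRα+ cells had medians of 0.345 in PDGFRα+ cells (quartiles 0.222 and 0.465) and 0.808 in CD137+ cells (0.693 and 0.889). In the remaining regions of that direction the medians were 0.257 in PDGFRα+ and 0.820 in CD137+ cells. Both classes were thus similar in the more methylated library, and dense regions kept more methylation in the less methylated one. In dense regions higher in PDGFRα+ cells the medians were 0.862 in PDGFRα+ and 0.399 in CD137+ cells, against 0.880 in PDGFRα+ and 0.340 in CD137+ cells in the remaining regions. The less methylated library, whichever it was, stood at a level of 0.5 or more in 397 dense regions (20.7%) and in 1376 remaining ones (5.32%).

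**Figure D1:**
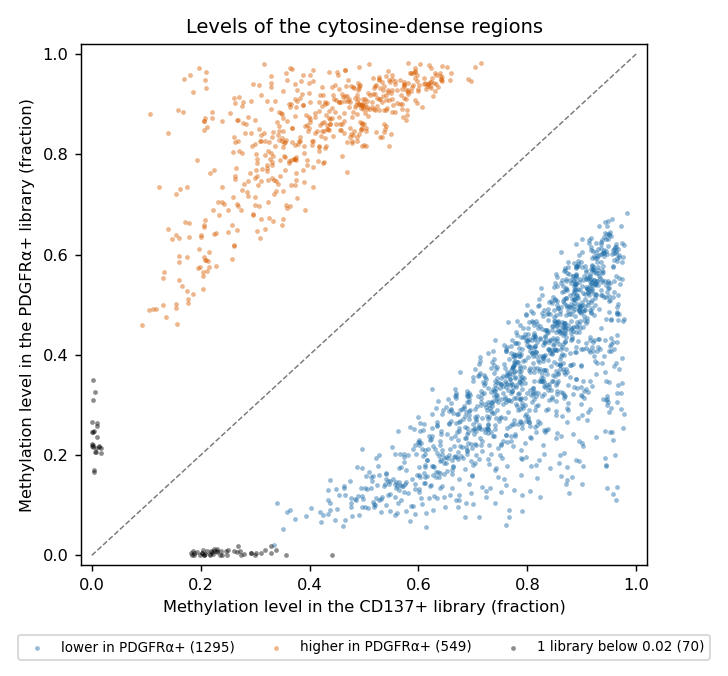
Each point is 1 of the 1914 dense regions, placed by its methylation level (fraction) in the CD137+ library on the horizontal axis and in the PDGFRα+ library on the vertical axis, with colours for the regions higher in PDGFRα+ cells, those lower, and, apart from these, the 70 with 1 library under 0.02. The dashed line marks equal levels, and 1342 points lie below it and 572 above.

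The median absolute difference was 0.414 in dense and 0.528 in remaining regions. A difference of at least 0.5 in either direction, the size used here as a call in place of a test, was found in 373 dense regions (19.5%, 17.8 to 21.3), against 15773 remaining ones (60.99%) and 58.1% of all regions. Calls lower in PDGFRα+ cells made up 13.8% of dense regions and 46.3% of all, and calls higher made up 5.69% of dense regions and 11.8% of all. Differences under 0.3 were rare but were found in 100 dense regions (5.22%) and in 94 remaining ones (0.363%). Of the 100, 60 had 1 library under a level of 0.02, and without such regions the share was 2.17%. On each of the 19 chromosomes the median absolute difference was smaller in dense regions, at 0.397 to 0.426 against 0.517 to 0.544.

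The density limit itself marked no step. In the 334 regions just inside it, by less than 0.5 cytosines per 100 bases, the share higher was 32.0%, the median absolute difference 0.433 and the share called 23.1%. In the 416 regions outside it by no more than that, these were 27.9%, 0.433 and 23.1%. Both measures changed over the whole range of density. The share called was 89.4% under 2 cytosines per 100 bases, 51.3% from 5 to 6, 24.3% from 10 to 12 and 4.71% in the 85 regions with 20 or more. Of those 85, 48 had 1 library under a level of 0.02, and without them the share was 10.8% (4 of 37). The share higher was 16.4% under 2, 23.4% from 5 to 6 and 30.2% from 10 to 12. Within the dense class it was 27.1% from 12 to 15, 34.4% (28.5 to 40.8) from 15 to 20 and 32.9% (23.9 to 43.5) from 20 upward, and these intervals overlap.

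**Figure D2:**
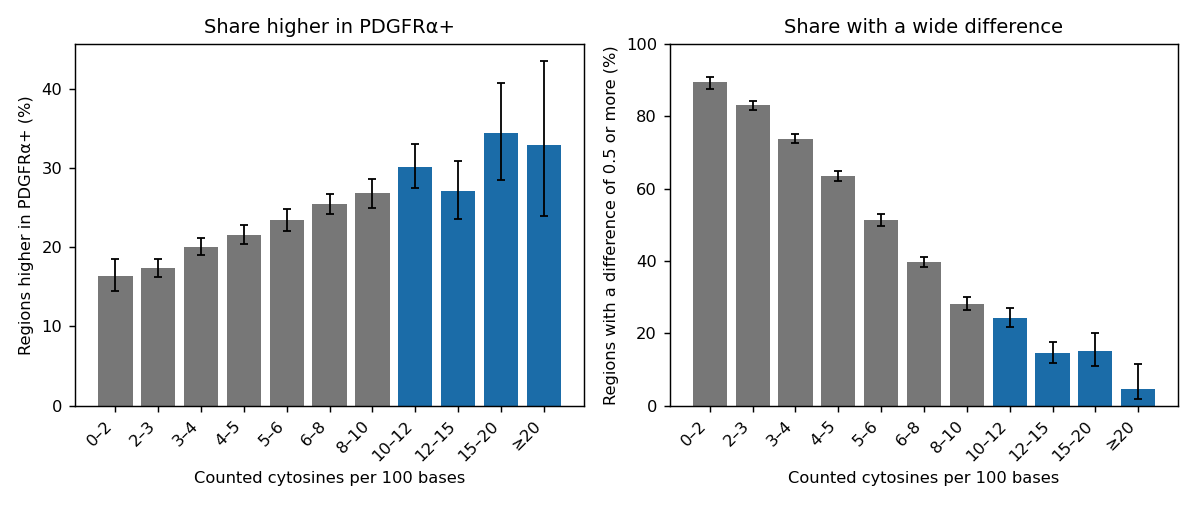
Listed regions of chromosomes 1 to 19 are grouped by counted cytosines per 100 bases, blue for the dense classes and grey for the others, by the share higher in PDGFRα+ cells (left) and the share with an absolute difference of 0.5 or more (right), both in percent with 95% Wilson intervals. The share called is 89.4% in the sparsest class and 4.71% in the densest (10.8% without regions that have 1 library under 0.02), while the share higher is 16.4% in the sparsest class and 32.9% in the densest.

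Length differed so much between the classes that dense and remaining regions were also set side by side at matched length. Among regions over 60 and up to 80 bases long the share higher was 30.7% in dense and 24.97% in remaining regions, and the share called 18.5% and 41.2%. Among regions over 150 and up to 200 bases long the shares higher were 32.9% (23.2 to 44.3) in 73 dense regions and 23.4% in remaining regions, and the shares called 11.0% and 58.3%. In the shortest class, up to 60 bases, the shares higher were nearly equal, at 28.2% and 27.4%, and those called were 26.7% and 34.4%. The smaller differences of dense regions were thus present in every length class, while the surplus of higher regions varied between them. Over 80 and up to 100 bases the shares higher were 26.9% (22.2 to 32.2) in dense and 24.1% in remaining regions. Long dense regions also had lower levels, with medians of 0.265 in the less and 0.660 in the more methylated library over 200 and up to 300 bases. Of the 109 dense regions over 200 bases, 35 had 1 library under a level of 0.02, and their part in these medians was not tested.

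**Figure D3:**
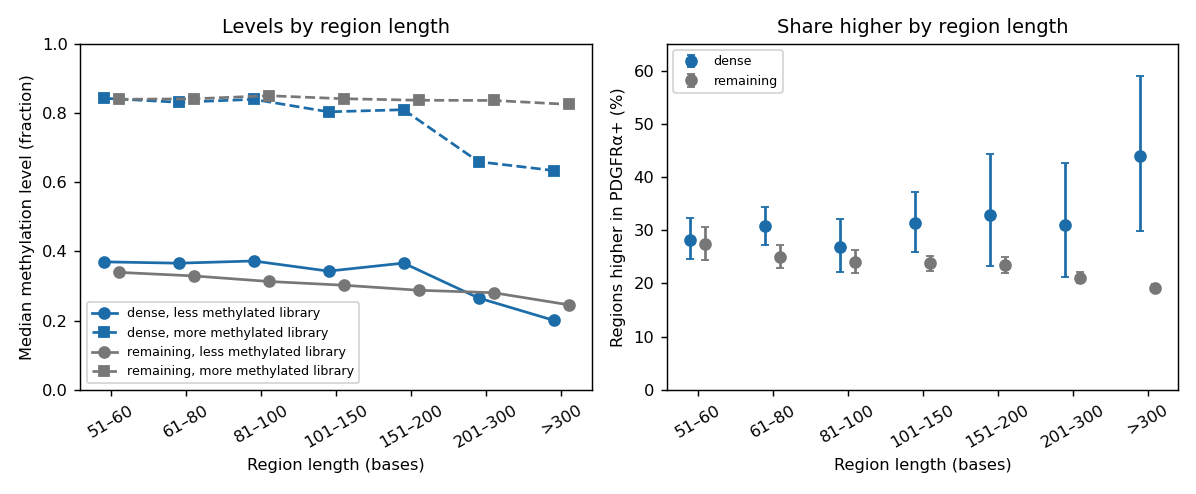
Dense (blue) and remaining (grey) regions by class of region length in bases, with the median methylation level (fraction) of the less and the more methylated library on the left and the share higher in PDGFRα+ cells (percent, bars for the 95% Wilson interval) on the right. In regions over 200 and up to 300 bases the more methylated library had a median of 0.660 in dense and 0.837 in remaining regions, while in the shortest class these were 0.843 and 0.840.

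Dense regions lay slightly nearer to genes. The median distance to the nearest start of a protein-coding gene was 33402 bases for dense and 41331 for remaining regions. Within 2 kb of a start there were 148 dense regions (7.73%, 6.62 to 9.02) and 1723 remaining ones (6.66%, 6.37 to 6.97), and these intervals overlap. The larger contrast was at the far end, since 764 dense regions (39.9%) and 11703 remaining ones (45.3%) lay over 50 kb from a start. Spans of protein-coding genes held 1041 dense regions (54.4%) and 52.5% of the remaining ones. Of the 106 dense regions within 2 kb of a start given by the promoter table, 37 lay upstream, 8 across the start and 61 downstream. Exons and introns were not separated.

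The balance of directions changed with this distance in both classes. The share higher in dense regions was 39.2% (31.7 to 47.2) within 2 kb of a start, 41.6% (36.1 to 47.2) from 2 to 10 kb, 30.03% from 10 to 50 kb and 23.4% beyond. In remaining regions it was 36.4%, 31.8%, 23.6% and 15.1% over the same classes. Within 2 kb of a start the dense and remaining shares differed by less than the interval of the dense share. Beyond 50 kb dense regions had median levels of 0.404 in PDGFRα+ and 0.763 in CD137+ cells, while those within 2 kb of a start had 0.416 in PDGFRα+ and 0.571 in CD137+ cells.

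**Figure D4:**
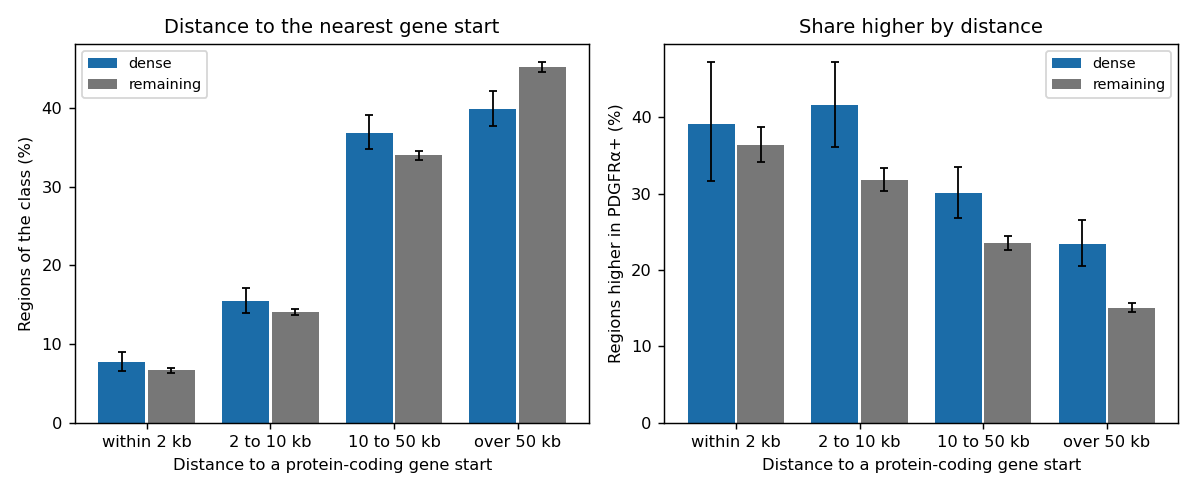
Dense regions (left of each pair) and remaining regions (right) by distance to the nearest protein-coding gene start, as the share of regions at each distance (left panel) and the share higher in PDGFRα+ cells (right panel, both in percent, bars for the 95% Wilson interval). From 2 to 10 kb the share higher is 41.6% in dense regions and 31.8% in the others.

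Promoter windows were overlapped by 22 dense regions (1.15%) and by 432 regions in all (1.56%). The 24 windows at dense regions had a median of 6.33 CpG cytosines per 100 bases, against 4.67 over all 31396 RefSeq windows. The 436 windows at remaining regions had a median of 4. Of the 24 windows 5 (20.8%) held 10 or more, against 4.59% of the windows at remaining regions and 35.2% over all windows. The windows at dense regions contain bases of regions chosen for their cytosines, so their density is a description.

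Neighbouring regions went the same way. Another listed region lay within 500 bases of 316 dense regions (16.5%, 14.9 to 18.2) and of 2083 remaining ones (8.05%). The neighbour had the same direction in 314 of 316 cases for dense regions (99.4%) and in 2046 of 2083 for the others (98.2%). In 79 of the 316 cases the neighbour was itself dense, and a pair can count once for each of its members. Of all dense regions 70.1% were lower in PDGFRα+ cells, and of all remaining ones 78.3%. There were 2 exceptions among the dense regions. At Rspo1, a secreted enhancer of Wnt signalling, the dense region chr4:125007600-125007653 had 0.813 in PDGFRα+ and 0.429 in CD137+ cells, and a region 94 bases away had 0.441 in PDGFRα+ and 0.744 in CD137+ cells. The other, chr3:146994167-146994268, had no protein-coding gene within 2 kb and levels of 0.345 in PDGFRα+ and 0.719 in CD137+ cells. Its neighbour, 466 bases away, had 0.878 in PDGFRα+ and 0.471 in CD137+ cells.

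A group of 70 dense regions (3.66%) had 1 library under a level of 0.02, against 6 remaining regions (0.0232%). Of these, 47 were lower in PDGFRα+ cells, with a median of 0.0051 in PDGFRα+ and 0.230 in CD137+ cells. The other 23 were higher, with a median of 0.221 in PDGFRα+ and 0.0047 in CD137+ cells. The second library thus carried only moderate methylation, at most 0.442 in CD137+ and 0.349 in PDGFRα+ cells, and 0 of the 70 reached a difference of 0.5. Many were very dense, with 48 of the 85 regions that held 20 or more cytosines per 100 bases among them, although 22 of the 70 lay under that density. The median density was 26.1 cytosines per 100 bases in the 47 lower regions and 20.5 in the 23 higher ones. Within 2 kb of a protein-coding start there were 3 (4.29%, 1.47 to 11.9), an interval that covers the 6.74% of all regions. One, at Gfap, an intermediate filament gene of astrocytes, had 0.0112 in PDGFRα+ and 0.204 in CD137+ cells. The region upstream of Klc1, a kinesin light chain, had 0.0092 in PDGFRα+ and 0.261 in CD137+ cells. That at Flot1, a membrane raft protein, had 0.257 in PDGFRα+ and 0.0095 in CD137+ cells. None of the 70 overlapped a promoter window, so the sequence context of their cytosines could not be checked. Without them the share higher was 29.8% and the share called 20.2%.

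The authors' area statistic, a score for each region, was large in these 70 regions, which also held more cytosines. Their medians were 39 cytosines and 192 bases, against 9 cytosines and 71 bases in the other dense regions. Among the 12 regions lower in PDGFRα+ cells with the largest statistic at protein-coding genes, 10 had a level under 0.02 in PDGFRα+ cells. They included Rad51b, a DNA repair gene, with 0.0077 in PDGFRα+ and 0.224 in CD137+ cells, and Fgf18, a growth factor gene, with 0.0046 in PDGFRα+ and 0.181 in CD137+ cells. The other 2 were regions of intermediate level. In Runx1, a transcription factor of blood formation, 62 cytosines in 421 bases (chr16:92605688-92606108) had 0.179 in PDGFRα+ and 0.627 in CD137+ cells. In Jak3, a kinase of cytokine receptors, 54 cytosines in 524 bases (chr8:71685535-71686058) had 0.121 in PDGFRα+ and 0.657 in CD137+ cells.

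Among the 12 such regions higher in PDGFRα+ cells, only 3 (Hps4, Trim72 and Alox8) had CD137+ levels under 0.02. Prrx1, a homeobox gene of limb and connective tissue mesenchyme, had 51 cytosines in 502 bases of its span (chr1:163308665-163309166), at 0.690 in PDGFRα+ and 0.249 in CD137+ cells. In Ltbp4, which encodes a binding protein of latent TGF-beta, a region had 0.699 in PDGFRα+ and 0.299 in CD137+ cells. Mxi1, an antagonist of Myc, held a region of 26.0 cytosines per 100 bases with 0.961 in PDGFRα+ and 0.660 in CD137+ cells. Camk2b, a calcium-dependent kinase gene, had 0.734 in PDGFRα+ and 0.239 in CD137+ cells. Of the 6 densest regions at genes, Entpd1, which encodes the ectonucleotidase CD39, was the only one away from 0, with 0.621 in PDGFRα+ and 0.889 in CD137+ cells.

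Some of the largest differences at protein-coding genes are given next, for genes named after their values were seen. In Kcnd3, a potassium channel gene, 6 cytosines in 60 bases had 0.110 in PDGFRα+ and 0.964 in CD137+ cells, a difference of -0.854. In Coro7, a coronin gene, 17 cytosines in 107 bases had 0.122 in PDGFRα+ and 0.958 in CD137+ cells. In the other direction, 9 cytosines in Tln2, the talin 2 gene, had 0.958 in PDGFRα+ and 0.181 in CD137+ cells.

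A dense region lay in, or within 2 kb of, 976 of 20665 protein-coding genes (4.72%), against 30.6% for any region. Of these genes, 638 had dense regions lower in PDGFRα+ cells only, 298 higher only and 40 in both directions. Several dense regions were found in 124 genes, and 84 of these had a single direction. Foxp1, a forkhead transcription factor gene, had the most, with 2 higher and 4 lower, while its remaining regions were 6 higher and 16 lower. Auts2, a neurodevelopmental gene, had 4 dense regions higher and 1 lower, while its 14 remaining regions were 1 higher and 13 lower. Several of the higher dense regions of Auts2 lay close together, between chr5:131536700 and chr5:131549372. St8sia1, a sialyltransferase gene, and Rad51b each had 4 dense regions, and these were lower in PDGFRα+ cells. The remaining regions were 1 higher and 1 lower at St8sia1, and 2 higher and 16 lower at Rad51b. Rcan1, an inhibitor of calcineurin, had 2 dense regions in each direction and 1 remaining region in each.

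Genes of embryonic patterning had more higher than lower dense regions. Over the 181 genes of 3 lists (Hox genes, other homeobox genes, and T-box, forkhead, Gata, Sox and related genes), 25 (13.8%) had a dense region, and of their 35 dense regions 20 were higher and 15 lower (57.1% higher, 40.9 to 72.0). Over all dense regions at protein-coding genes 32.3% were higher, and the median differences were 0.335 for the patterning genes and -0.372 for all. The remaining regions of the patterning genes were 43.8% higher, against 21.7% of all remaining regions. The lists were not matched on gene length or CpG content.

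Among homeobox genes outside the Hox clusters, 8 of 12 dense regions were higher. Zfhx3, a large zinc finger homeobox gene, had 3, at 0.713, 0.852 and 0.906 in PDGFRα+ cells and 0.378, 0.399 and 0.337 in CD137+ cells. Msx1, a gene of limb and craniofacial mesenchyme, had 0.694 in PDGFRα+ and 0.358 in CD137+ cells, and Isl1, a LIM homeobox gene, had 0.494 in PDGFRα+ and 0.154 in CD137+ cells. The 4 lower regions included that of Pbx3, at 0.683 in PDGFRα+ and 0.984 in CD137+ cells, and that of Prrx2, one of the 70 with a library under 0.02.

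Among T-box, forkhead, Gata, Sox and related genes 10 of 18 dense regions were higher. Tbx4, a hindlimb T-box gene, had 0.867 in PDGFRα+ and 0.207 in CD137+ cells. Gata4, a factor of heart and mesothelial development, had 0.773 in PDGFRα+ and 0.265 in CD137+ cells. Osr2, an odd-skipped gene, had 0.729 in PDGFRα+ and 0.277 in CD137+ cells. Sox5 and Sox6, cartilage-associated Sox genes, lay on the other side. Sox6 had 0.253 in PDGFRα+ and 0.763 in CD137+ cells. The Hox clusters held 5 dense regions, 2 higher and 3 lower, while 62.2% of the 37 remaining regions of Hox genes were higher. Hoxa10 had 0.554 in PDGFRα+ and 0.131 in CD137+ cells. A region shared by Hoxa3 and Hoxa5 had 0.458 in PDGFRα+ and 0.847 in CD137+ cells.

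**Figure D5:**
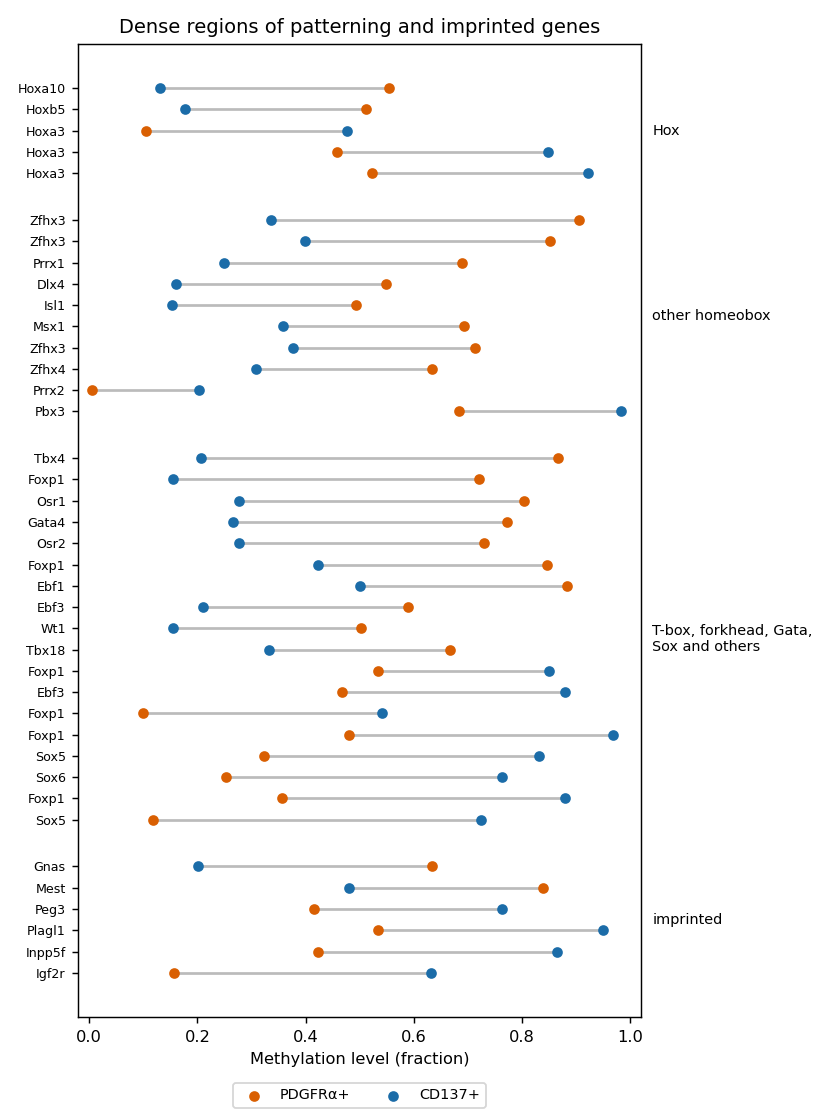
Dense regions of patterning genes and imprinted genes reported here, 1 line each, with the methylation level (fraction) in the PDGFRα+ and the CD137+ library joined by a bar. Tbx4 stands at 0.867 in PDGFRα+ and 0.207 in CD137+ cells, and Igf2r at 0.156 in PDGFRα+ and 0.632 in CD137+ cells.

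Of 30 imprinted genes, 7 (23.3%) had a dense region, against 4.72% of all protein-coding genes and 10.54% of the 541 genes of all lists. Listed regions of any density lay at 14 of the 30, against 30.6% of all protein-coding genes. The dense regions numbered 6, since 1 is shared by Peg3 and Usp29, and 2 were higher and 4 lower in PDGFRα+ cells. Besides Mest, described with its sequence, Gnas, which encodes a stimulatory G protein subunit, was higher, with 56 cytosines in 541 bases (chr2:174298464-174299004) at 0.634 in PDGFRα+ and 0.201 in CD137+ cells. The region of Peg3, a paternally expressed zinc finger gene, lay 805 bases from a start, at 0.416 in PDGFRα+ and 0.763 in CD137+ cells. Plagl1, a growth regulator also expressed from the paternal copy, had 0.534 in PDGFRα+ and 0.949 in CD137+ cells at 1136 bases from a start. Igf2r, a maternally expressed receptor that clears insulin-like growth factor 2, had 0.156 in PDGFRα+ and 0.632 in CD137+ cells. Inpp5f, a phosphatase gene, had 0.422 in PDGFRα+ and 0.865 in CD137+ cells. The 2 imprinted genes that were higher thus stood beside 4 regions of the opposite direction. Whether any of the 6 regions lies in a control region of imprinting was not tested.

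Adipocyte genes had a dense region at a share near that of all protein-coding genes (4.72%). Of 33 white adipocyte genes 2 (6.06%) had one, and both regions were lower, Mlxipl, the carbohydrate response factor gene, at 0.322 in PDGFRα+ and 0.688 in CD137+ cells, and Zfp423, a preadipocyte factor gene, at 0.314 in PDGFRα+ and 0.670 in CD137+ cells. Of 29 brown and beige genes 2 (6.90%) had them. Prdm16, a determinant of brown and beige fat, had 0.315 in PDGFRα+ and 0.868 in CD137+ cells. Bmp7, an inducer of brown adipogenesis, had 2 higher regions, at 0.903 and 0.899 in PDGFRα+ cells and 0.486 and 0.493 in CD137+ cells, and 1 lower region, at 0.468 in PDGFRα+ and 0.851 in CD137+ cells. Among 24 glucocorticoid response genes only Zbtb16, a zinc finger factor induced by glucocorticoids, had one, at 0.324 in PDGFRα+ and 0.966 in CD137+ cells.

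Signalling genes had dense regions of both directions. Of 53 genes of TGF-beta, BMP and Wnt signalling 8 (15.1%) had a dense region, against 4.72% of all protein-coding genes. Listed regions of any density lay at 31 of the 53, against 30.6% of all protein-coding genes, and gene length was not matched. Of the 12 dense regions at these signalling genes 5 were higher (41.7%) and 7 lower. Of the dense regions at all protein-coding genes 32.3% were higher. The ligand genes Wnt3a and Wnt5a were higher, Wnt3a with 0.668 in PDGFRα+ and 0.207 in CD137+ cells and Wnt5a with 0.538 in PDGFRα+ and 0.165 in CD137+ cells. Among receptors, Bmpr1b had 2 regions that were lower, at 0.1205 and 0.279 in PDGFRα+ cells and 0.674 and 0.854 in CD137+ cells. The Wnt coreceptor gene Lrp5 was higher, with 0.904 in PDGFRα+ and 0.428 in CD137+ cells. The nuclear effector gene Tcf7l2 had 2 lower regions, at 0.190 and 0.382 in PDGFRα+ cells and 0.889 and 0.860 in CD137+ cells. Axin2, a feedback inhibitor of the Wnt pathway, was lower, with 0.255 in PDGFRα+ and 0.703 in CD137+ cells.

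Of 30 Hippo pathway and TEAD genes 3 (10%) had a dense region, against 4.72% of all protein-coding genes. Listed regions of any density lay at 21 of the 30, against 30.6% of all protein-coding genes, and gene length was not matched. Tead1, a DNA-binding partner of YAP, had 9 cytosines in 57 bases at 0.982 in PDGFRα+ and 0.714 in CD137+ cells. Wwtr1, which encodes the coactivator TAZ, had 0.770 in PDGFRα+ and 0.356 in CD137+ cells, and Wwc2, an upstream member, had 0.529 in PDGFRα+ and 0.873 in CD137+ cells. Of 36 extracellular matrix genes 2 (5.56%) had a dense region. Col4a2, a basement membrane collagen gene, had 1 higher and 2 lower regions and Col8a1 had 1 lower. Tet1, a demethylating enzyme gene, had the only dense region among 19 genes of DNA methylation, at 0.111 in PDGFRα+ and 0.528 in CD137+ cells. Mael was the only one of 28 germline genes with a dense region, at 0.239 in PDGFRα+ and 0.760 in CD137+ cells.

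Markers of other cell types that a sort can carry were also read. Over all protein-coding genes 4.72% had a dense region, and 32.3% of the dense regions at such genes were higher. Of 22 immune markers 1 had a dense region, Csf1r, the macrophage growth factor receptor gene, at 0.957 in PDGFRα+ and 0.540 in CD137+ cells. Of 17 endothelial markers 1 had one, Pecam1, at 0.912 in PDGFRα+ and 0.483 in CD137+ cells. Of 14 mural and smooth muscle markers Myocd had a higher region and Notch3 a lower one. Of 15 mesothelial and epithelial markers Wt1 had a higher region, at 0.502 in PDGFRα+ and 0.154 in CD137+ cells, and Upk3b a lower one, at 0.337 in PDGFRα+ and 0.887 in CD137+ cells. Of 25 progenitor and fibroblast genes 1 had a dense region, Anxa3, at 0.749 in PDGFRα+ and 0.324 in CD137+ cells. Of all remaining regions 21.7% were higher. At immune markers 22 of 33 remaining regions were higher (66.7%), and at endothelial markers 22 of 38 (57.9%). At mural and smooth muscle markers 3 of 16 were higher (18.8%). The counts were 1 of 16 at mesothelial and epithelial markers (6.25%) and 4 of 26 at progenitor and fibroblast genes (15.4%). A difference in the mix of cells and a difference within 1 cell type cannot be told apart, and the part of either in the dense regions was not tested.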

How the data were processed

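Whole-genome bisulfite sequencing was done on 1 PDGFRα+ and 1 CD137+ library, grouped by the labels. DNA was sheared, adapter-ligated, bisulfite-converted and amplified, per the labels' protocols. Per the submitters' processing notes the genome build was mm10. Which tools aligned the reads and called methylation and regions, with what thresholds and coverage, is not given in the sources used here. The authors deposited 1 table of called regions. Per the file headers it holds the methylation level of each library as a fraction, the number of cytosines as a count, and the authors' area statistic as a score. The length is deposited in bases. Only regions called by the authors are in the table, and each share or median refers to such regions. A deposited level is the authors' value, with unknown depth.

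Starts counted from 0 in the table and are printed counted from 1. The difference is PDGFRα+ minus CD137+ and equals the deposited one within 0.0002. Regions were assigned to RefSeq genes (GRCm38.p6) that they overlapped or lay within 2 kb of. Gene starts came from the RefSeq promoter windows (250 bases before to 50 after a start), which covered 79.6% of protein-coding genes, and otherwise both ends of a gene were used. Wilson 95% intervals cover counting error only. No test was made, since there was 1 library a group. The members and lists were chosen with earlier results of these data known. Named genes were Tead1, Pdgfra and Tnfrsf9, the 12 dense regions of each direction with the largest statistic (at most 1 for a gene), for each list as many as 4 members, the 6 genes with the most dense regions and the 6 densest regions at genes. Other genes named were chosen after their values were seen, and some selected genes are not reported here. Alternatives changed the density limit, minimum sizes, weighting, length matching and gene assignment. The steps were checked with directions and differences planted in the deposited regions. Distances, gene assignment and gene spans were checked by direct recounts on samples of regions and genes. The work was done in Python 3.11.15 with pandas 2.3.3, numpy 2.4.6, matplotlib 3.10.9 and scipy 1.17.1.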

Additional observations from a re-analysis of the deposited data

How the results depend on the processing

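No paired analysis was possible because each group had 1 library. The surplus of regions higher in PDGFRα+ cells among dense over remaining regions was 8.15 percentage points (95% interval 6.08 to 10.3). It was 11.8 and 10.7 at density limits of 0.15 and 0.2 cytosines per base, 10.53 with at least 10 cytosines, 11.5 and 15.8 with at least 100 and 200 bases, 11.7 above the median statistic, 11.1 weighted by length and 4.87 when weighted over length classes. The median absolute difference, dense minus remaining, was -0.114. It was -0.104, -0.129, -0.150 and -0.249 at limits of 0.08, 0.12, 0.15 and 0.2, -0.121 with at least 10 cytosines, -0.139 and -0.187 with at least 100 and 200 bases, and -0.109 and -0.0213 with differences of at least 0.3 and 0.5. It was -0.130 above the median statistic, -0.138 and -0.13 weighted by length and by cytosines, -0.0682 over length classes and -0.107 without dense regions at 0.15 or more, an alternative added after seeing the data. The share with a difference of at least 0.5 was -41.5 points, dense minus remaining. It was -45.9, -46.5 and -53.6 at limits of 0.12, 0.15 and 0.2, -44.8 with at least 10 cytosines, -51.8 and -63.2 with at least 100 and 200 bases, -44.7 above the median statistic, -51.5 and -45.6 weighted by length and by cytosines, and -24.4 over length classes. The share within 2 kb of a start was 1.07 points larger in dense regions (-0.0865 to 2.39). It was reversed at a limit of 0.2, at -0.857, and was 3.94 and 4.94 with at least 100 and 200 bases, and the cause was not tested. Of the list genes, 57 had a dense region, 67 with a flank of 5 kb and 12 with gene starts alone. Unknown depth limits each level, and no alternative replaces a replicate.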

Other observations

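On the X chromosome, which the density rule left out, 22 regions held 10 or more cytosines per 100 bases, and 7 of them (31.8%) were higher in PDGFRα+ cells. Of the 343 other regions on X, 20.4% were higher. The area statistic per cytosine was also read on the autosomes. Its median absolute value was 8.82 in the 70 dense regions with 1 library under 0.02 and 5.82 in the other dense regions. In the 25860 remaining regions, which are not dense, it was 6.42.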
